A study of Mus musculus with 12 samples.

Results

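The genes described here are 10 regulators of mTORC1, the growth-controlling kinase complex that responds to amino acids: Sesn1, Sesn2, Sesn3, Deptor, Ddit4, Ddit4l, Eif4ebp1, Akt1s1, Rptor and Mtor. They were taken by symbol from the deposited gene tables, in which all 10 were found among 16514 genes listed in at least 1 table. All 10 passed the filter on low values in each comparison. Their RNA was measured in whole hearts of male C57Bl/6J mice aged 12 weeks. The 4 groups were BCAA-free TAC, BCAA-free sham, control TAC and control sham, with 3 libraries each. The BCAA-free diet held no branched-chain amino acids (leucine, isoleucine and valine), whereas the control diet held them at the level of ordinary chow. Every mouse, control mice included, also received 1% propionate in its food. The diets began 4 days before surgery and went on until the hearts were taken 1 week after it. Transverse aortic constriction (TAC) narrows the aorta and loads the left ventricle with pressure, and sham surgery leaves the aorta open. All differences below are therefore differences in the presence of propionate, and the diets differ in isoleucine and valine as well as in leucine.

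mTORC1 drives protein synthesis and cell growth when amino acids, growth factors and energy are at hand. Leucine reaches it through the sestrins, which bind and hold back the GATOR2 complex when leucine is scarce, so that the Rag GTPases no longer bring mTORC1 to the lysosome. Several of the regulators are also controlled through their RNA, since ATF4, the transcription factor of the amino acid response, induces Sesn2, Ddit4 and Eif4ebp1 in cultured cells. In the heart, mTORC1 is known for its part in the growth of muscle cells under pressure load. Its activity is set largely by binding and phosphorylation of proteins, which RNA levels do not measure.

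The libraries held 29925880 to 46092728 reads assigned to genes, recovered as whole numbers from the deposited normalised values. Levels are given as CPM, the reads of a gene scaled to a common library size with TMM (trimmed mean of M values) factors. Differences are log2 differences of the deposited normalised reads with a pseudocount of 4, given with the standard error (SE), tested with limma and adjusted over all genes tested by Benjamini and Hochberg, with a threshold of 0.05. Intervals are 95% confidence intervals. Nothing in the labels ties each library to a mouse of its own, so the p-values speak for the spread between libraries, part of which may be technical. The 8 cardiomyocyte markers summed to 84067 to 99304 CPM in every library. Control TAC replicate 3 stood apart in liver markers. All 10 summed to 287 CPM there and to 12.6 to 16.3 CPM in the other control libraries. For TAC against sham on the BCAA-free diet 4 of the 10 were listed, with sums of 15.1 to 20.5 CPM. These cannot be set beside sums of 10 markers. In the diet comparison of TAC hearts all 10 were tested. Control TAC replicate 1 and BCAA-free TAC replicate 1 had the highest sums of fibroblast markers, at 1451 and 1435 CPM, against 760 to 856 CPM in the other TAC libraries. BCAA-free TAC replicate 2 had the highest sum of adipocyte markers, at 62.3 CPM, against 6.49 to 24.9 CPM in all other libraries. The same library was the highest of all in Sesn2 and Ddit4l, at 4.98 and 2.53 CPM. A link between these values was not tested. Members that overlap another annotated gene are Sesn1, Sesn2, Deptor, Akt1s1, Rptor and Mtor, and reads shared with that gene cannot be told apart because the strand used in counting is not given in the sources used here.

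Removal of the branched-chain amino acids left no change past the threshold in any of the 10 genes. Over all genes 2.81% passed in sham hearts, 3.38% in TAC hearts and 11.8% with the diet averaged over surgery. Sesn2, the leucine sensor itself, stood at 3.80 ± 0.88 CPM in BCAA-free sham and 4.05 ± 0.35 CPM in control sham libraries, and at 4.40 ± 0.65 CPM in BCAA-free TAC and 3.69 ± 0.54 CPM in control TAC libraries (SD, n = 3 each). The 1 member past the threshold passed with TAC, where 4.32% of all genes passed on the BCAA-free and 5.34% on the control diet. Eif4ebp1, which encodes the translation repressor 4E-BP1, rose with TAC by 49.7% on the BCAA-free diet and by 36.2% on the control diet. In whole hearts such a rise could lie in more RNA per cell or in more cells of a type that makes it, which cannot be told apart. Core subunits Mtor and Rptor stayed within a narrow range, with the highest library 1.23 and 1.24 times the lowest.

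**Figure D1:**
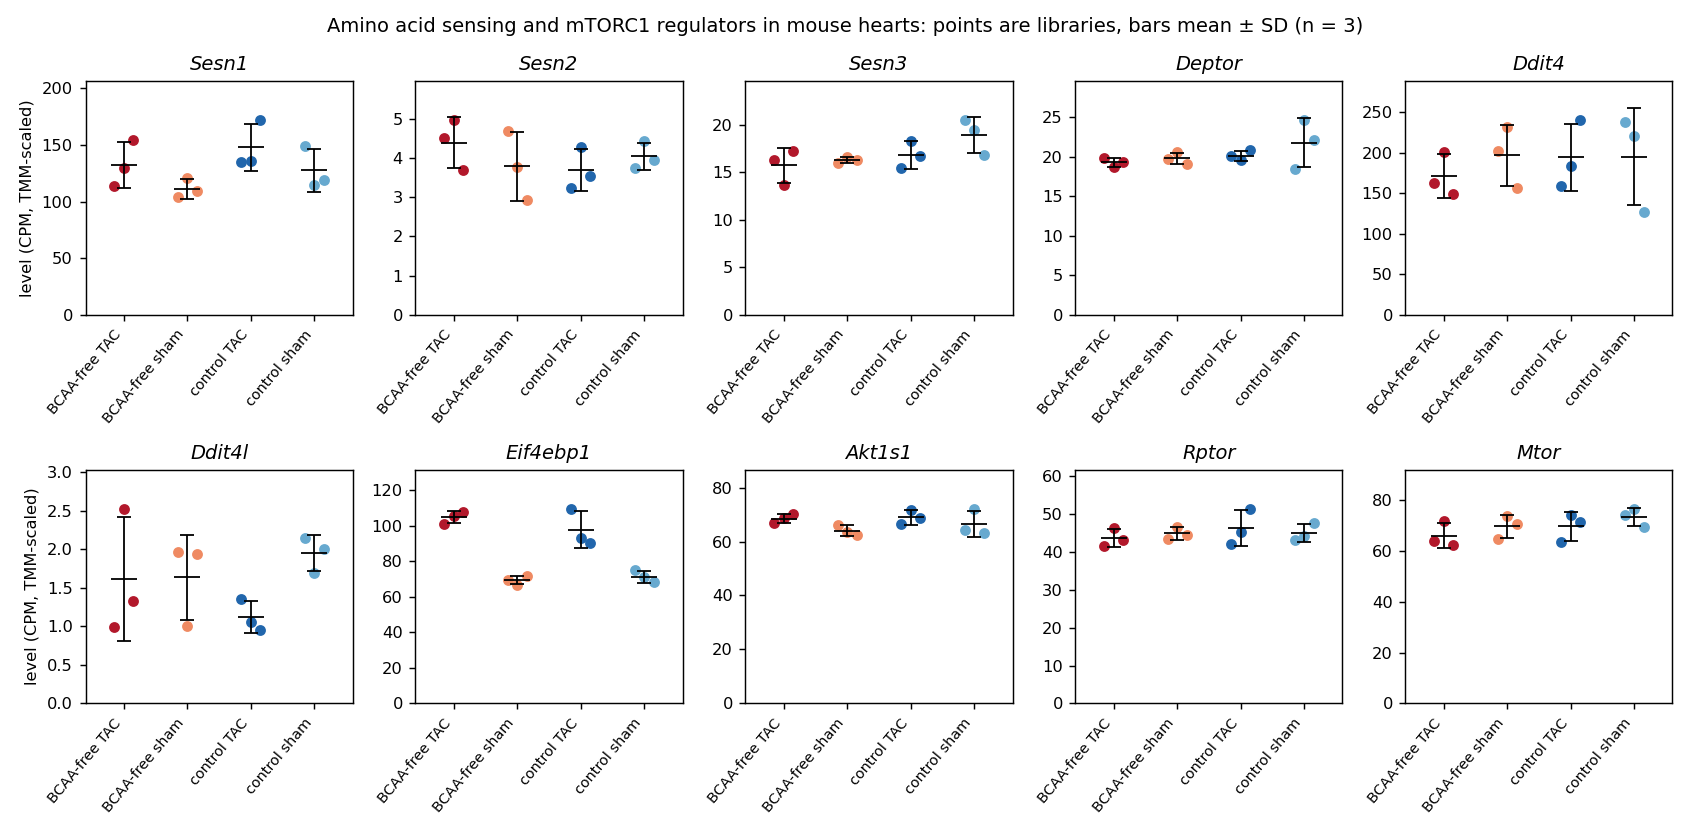
Levels of the 10 members in every library, in CPM on linear axes that start at 0; each point is 1 library and each bar the mean ± SD of 3. Eif4ebp1 is the panel in which both TAC groups stand wholly above their sham groups, at 90.2 to 109.5 against 66.8 to 74.9 CPM.

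Levels of different genes can be compared only per length, here as CPM per kilobase of merged exon, averaged over all 12 libraries. Ddit4 was highest at 107.9, followed by Eif4ebp1 at 39.1, Sesn1 at 32.6 and Akt1s1 at 21.8 CPM per kilobase. Mtor stood at 6.89, Rptor at 3.34 and Deptor at 2.28 CPM per kilobase. Sesn2 at 1.15 and Sesn3 at 1.11 CPM per kilobase could not be put in order, with Sesn2 the higher in 5 of 12 libraries, and Ddit4l was lowest at 0.54. Eif4ebp1 exceeded Sesn1 in 10 of 12 libraries, and each other gene exceeded the next in 12 of 12. Each gene had 1 fixed length, the merged exons of all its annotated transcripts, so these counts do not cover uncertainty in length. Among the sestrins, Sesn1 was thus the most abundant per length in these hearts.

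The comparison of diets asks whether the missing leucine, isoleucine and valine leave a trace in the RNA of the regulators. In sham hearts limma called 0 of 10 members, where it called 2.81% of all 15596 genes. In TAC hearts it called 0 of 10, against 3.38% of 16222 genes. With the diet difference averaged over both surgeries it called 0 of 10, against 11.8% of 15458 genes. Before adjustment, p was under 0.05 for 1, 0 and 0 members, while the edgeR and DESeq2 tests each called 0 in all 3 comparisons. The median size of the averaged difference was 0.07 over the members and 0.12 over all genes, on the log2 scale. The interval of the averaged difference lay within 1.5-fold in either direction for all 10 members. In sham hearts alone this held for 9, with Ddit4l the exception, and in TAC hearts for 8, with Sesn2 and Ddit4l the exceptions.

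**Figure D2:**
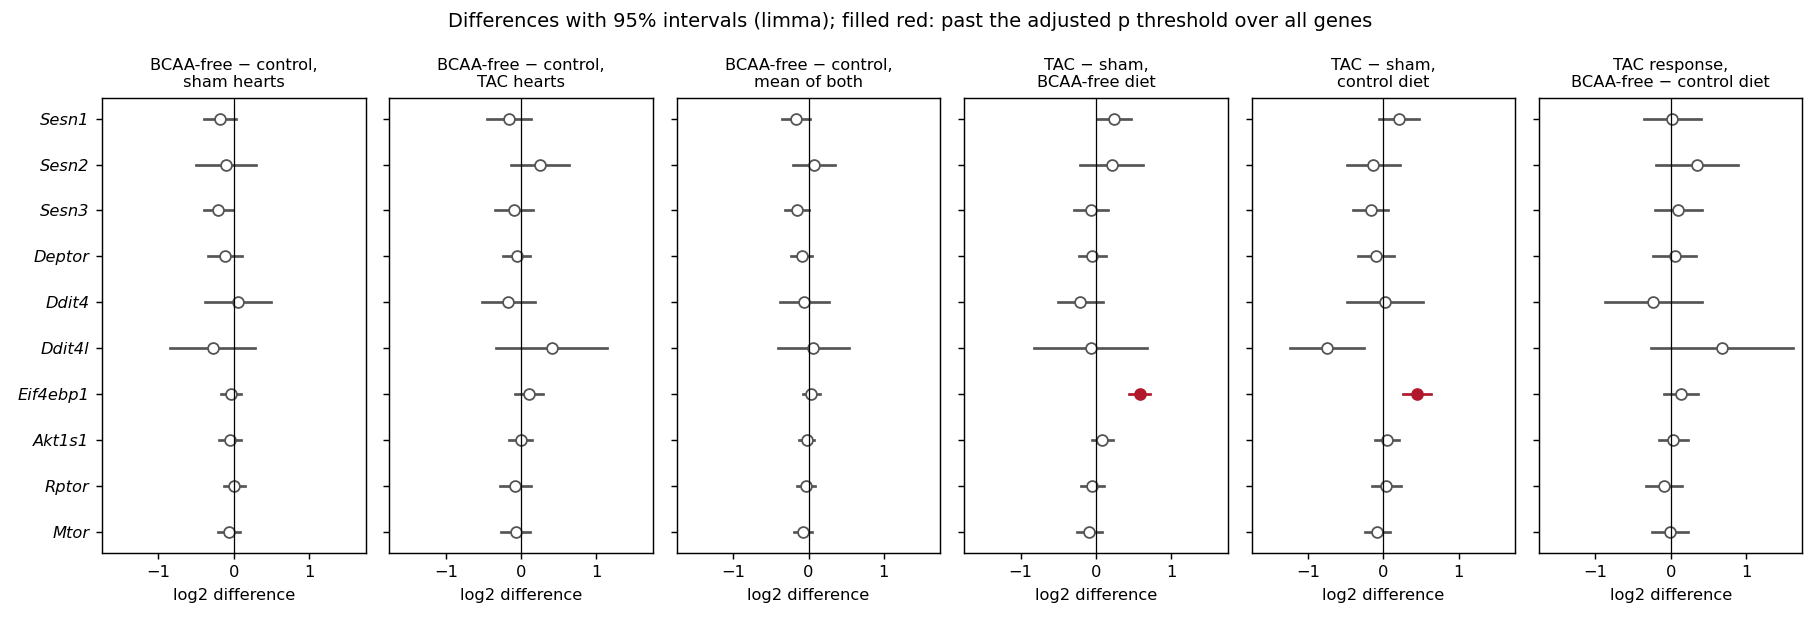
Log2 differences (x axis) of the 10 members (rows) in 6 comparisons, with 95% intervals from limma; filled red points passed the adjusted p threshold over all genes. The filled points are Eif4ebp1 in both comparisons of TAC with sham, at 0.58 and 0.45, and Ddit4l has the widest intervals.

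Sesn2 (ENSMUSG00000028893, chr4:132492032-132510501, minus strand, coordinates of GENCODE M21 on GRCm38) encodes a stress-induced protein that binds leucine. The upstream sequences of 8 members were found in the RefSeq promoter table of GRCm38.p6, as 9 windows of 300 bases, with 250 bases before the start site and 50 after it. Deptor and Eif4ebp1 had no entry. The windows of Sesn2 (chr4:132510407-132510706, minus strand) and of the first Sesn1 start site (chr10:41810324-41810623, plus strand) are shown, 5′ to 3′, because these are the sestrins known to bind leucine. Capitals mark a match of the FoxO site GTAAACA, here on the minus strand.
Sesn2: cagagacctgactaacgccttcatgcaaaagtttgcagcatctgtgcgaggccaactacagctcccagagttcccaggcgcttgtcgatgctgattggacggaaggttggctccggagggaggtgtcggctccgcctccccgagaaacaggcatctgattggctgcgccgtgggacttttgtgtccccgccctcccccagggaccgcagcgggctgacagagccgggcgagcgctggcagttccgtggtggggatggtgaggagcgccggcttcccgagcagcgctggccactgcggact
Sesn1: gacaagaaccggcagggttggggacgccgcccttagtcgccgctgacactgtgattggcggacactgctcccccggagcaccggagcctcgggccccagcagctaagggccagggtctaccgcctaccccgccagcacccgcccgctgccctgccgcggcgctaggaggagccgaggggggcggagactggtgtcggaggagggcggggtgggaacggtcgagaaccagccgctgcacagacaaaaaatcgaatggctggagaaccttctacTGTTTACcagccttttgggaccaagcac
Both strands of each window were searched for the composite site of C/EBP and ATF factors, TGATGNAA, through which ATF4 acts on many amino acid response genes. It was in 0 of the 8 members' windows, and in 3.969% of all 32851 windows of the table. The E-box CACGTG was in 0 of 8 members, against 7.15% of all windows. The FoxO site was in 1 member, Sesn1, at position 23 after the start site, against 3.65% of all windows. A match describes letters in a window and not a bound site, and a missing match concerns only these windows.

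Sesn2 was measured at 4.52, 4.98 and 3.70 CPM in BCAA-free TAC libraries and at 4.69, 3.77 and 2.93 CPM in BCAA-free sham libraries. Its control values were 3.24, 4.28 and 3.54 CPM after TAC and 3.76, 4.43 and 3.95 CPM after sham surgery. All 4 groups overlapped, and the spread within BCAA-free sham, the group with the lowest library, was the widest. The diet difference was -0.10 ± 0.18 in sham hearts (SE, interval -0.50 to 0.29, adjusted p = 0.819) and 0.25 ± 0.17 in TAC hearts (interval -0.13 to 0.63, adjusted p = 0.460). Averaged over surgery it was 0.07, with an interval from -0.20 to 0.35 (adjusted p = 0.760). These rest on 106 to 183 reads per library, the fewest after Ddit4l.

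Sesn1 (ENSMUSG00000038332, chr10:41809935-41908424, plus strand), a paralog known as a target of p53 and of FoxO factors, was far more abundant than Sesn2. It was measured at 114, 129 and 154 CPM in BCAA-free TAC and at 104, 121 and 109 CPM in BCAA-free sham libraries. On the control diet the values were 135, 136 and 172 CPM after TAC and 149, 114 and 119 CPM after sham surgery. Groups that share a diet or a surgery overlapped, although the BCAA-free group had the lower mean at either surgery and the TAC group the higher mean on either diet. The averaged diet difference was -0.17 ± 0.09 (SE, interval -0.36 to 0.02, adjusted p = 0.228). The TAC difference was 0.23 ± 0.10 on the BCAA-free diet (adjusted p = 0.220) and 0.21 ± 0.12 on the control diet (adjusted p = 0.338). Without BCAA-free TAC replicate 1, its lowest TAC library, the difference on the BCAA-free diet was 0.33 and passed (adjusted p = 0.0465).

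Sesn3 (ENSMUSG00000032009, chr9:14275067-14333101, plus strand), the third sestrin and a FoxO target, was measured at 16.3, 13.7 and 17.2 CPM in BCAA-free TAC and 16, 16.6 and 16.3 CPM in BCAA-free sham libraries. Control libraries had 15.5, 18.3 and 16.7 CPM after TAC and 20.5, 19.5 and 16.8 CPM after sham surgery. In sham hearts the diet groups did not overlap, but the highest BCAA-free library and the lowest control library were close together. That difference was -0.20 ± 0.09 (SE, interval -0.40 to -0.01), with an unadjusted limma p of 0.0453 and an adjusted p of 0.263, so it did not pass. In TAC hearts the diet groups overlapped and the difference was -0.10 ± 0.11 (adjusted p = 0.680). Under the alternatives, the adjusted p in sham hearts ran from 0.0720 to 0.526.

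Ddit4 (ENSMUSG00000020108, chr10:59949669-59951834, minus strand) encodes REDD1, a short-lived inhibitor that shuts off mTORC1 through the TSC complex under hypoxia, glucocorticoids or energy stress. Its RefSeq window (GRCm38.p6, chr10:59951721-59952020, minus strand) is shown because Ddit4 is a known hypoxia-induced gene. Capitals mark the hypoxia response element core ACGTG at position -187 from the start site.
Ddit4: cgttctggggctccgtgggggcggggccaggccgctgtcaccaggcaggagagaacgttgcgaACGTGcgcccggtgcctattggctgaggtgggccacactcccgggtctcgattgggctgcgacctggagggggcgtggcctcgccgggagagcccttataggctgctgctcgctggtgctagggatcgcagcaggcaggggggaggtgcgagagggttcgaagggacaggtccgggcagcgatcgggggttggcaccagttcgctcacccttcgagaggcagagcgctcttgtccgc
This core was in 2 of the 8 members, Ddit4 and Rptor, and in 19.625% of all windows.

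Ddit4 was measured at 163, 201 and 149 CPM in BCAA-free TAC and 202, 232 and 157 CPM in BCAA-free sham libraries. Control values were 159, 183 and 240.5 CPM after TAC and 239, 220.1 and 127 CPM after sham surgery. Both extremes, 127 and 240.5 CPM, lay in control groups, and all groups overlapped. The standard deviation within groups was 0.34 on the log2 scale of CPM, against 0.09 for Eif4ebp1. The averaged diet difference was -0.06 ± 0.15 (SE, interval -0.38 to 0.27, adjusted p = 0.844). TAC differences were -0.21 ± 0.14 on the BCAA-free diet (adjusted p = 0.427) and 0.02 ± 0.22 on the control diet (adjusted p = 0.967).

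Ddit4l (ENSMUSG00000046818, chr3:137621612-137628333, plus strand) encodes REDD2, a paralog that also restrains mTORC1. Its levels were 0.992, 2.53 and 1.33 CPM in BCAA-free TAC and 1.96, 1.01 and 1.94 CPM in BCAA-free sham libraries. On the control diet they were 1.36, 1.06 and 0.947 CPM after TAC and 2.15, 1.69 and 2.0 CPM after sham surgery. The control TAC libraries all lay below the control sham libraries, whereas the BCAA-free groups overlapped. The TAC difference on the control diet was -0.75 ± 0.22 (SE, interval -1.24 to -0.25), or 40.4% lower with the pseudocount of 4 included. It did not pass (adjusted p = 0.0825, and 0.0506 to 0.443 under the alternatives). In the authors' deposited table the same comparison had an adjusted p of 0.0812. The TAC difference on the BCAA-free diet was -0.07 ± 0.34 (adjusted p = 0.936), and the difference between the TAC responses was 0.68 ± 0.44 (interval -0.27 to 1.62, adjusted p = 0.655). With 36 to 93 reads per library, Ddit4l had the least precise values of the 10, and its averaged diet interval ran from -0.41 to 0.54.

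Deptor and Akt1s1 encode inhibitors that sit on the mTOR complexes. Deptor (ENSMUSG00000022419, chr15:55112317-55259271, plus strand), which binds mTOR in both complexes, was measured at 19.8, 18.7 and 19.4 CPM in BCAA-free TAC and 19.7, 20.6 and 19.1 CPM in BCAA-free sham libraries. Control libraries had 20.1, 19.6 and 20.8 CPM after TAC and 18.5, 24.7 and 22.2 CPM after sham surgery. The control sham group held both the lowest and the highest library, so it overlapped all others. The averaged diet difference was -0.09 ± 0.07 (SE, interval -0.23 to 0.05, adjusted p = 0.412).

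Akt1s1 (ENSMUSG00000011096, chr7:44848991-44855421, plus strand) encodes PRAS40, which binds Raptor until Akt phosphorylates it. Its levels were 66.7, 68.6 and 70.1 CPM in BCAA-free TAC and 66.2, 63.4 and 62.6 CPM in BCAA-free sham libraries. Control libraries had 66.4, 71.8 and 68.6 CPM after TAC and 64.4, 72.2 and 63.0 CPM after sham surgery. The BCAA-free TAC and BCAA-free sham groups did not overlap, by a small margin, and the difference of 0.09 ± 0.06 did not pass (SE, adjusted p = 0.463). The averaged diet difference was -0.03 ± 0.05, the interval -0.12 to 0.07 being the tightest of the 10 (adjusted p = 0.766). Its highest library was 1.15 times its lowest, the narrowest range among the members.

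Rptor (ENSMUSG00000025583, chr11:119602905-119899576, plus strand) encodes Raptor, the scaffold that brings substrates to mTORC1. It was measured at 41.5, 46.2 and 43.3 CPM in BCAA-free TAC and 43.5, 46.7 and 44.6 CPM in BCAA-free sham libraries. Control libraries had 42.1, 45.4 and 51.4 CPM after TAC and 43.1, 44.2 and 47.6 CPM after sham surgery. All 4 groups overlapped. Its averaged diet difference was -0.04 ± 0.06 (SE, interval -0.15 to 0.08, adjusted p = 0.731).

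Mtor (ENSMUSG00000028991, chr4:148448611-148557683, plus strand), the kinase itself, was measured at 64.0, 71.6 and 62.4 CPM in BCAA-free TAC and 64.6, 73.6 and 70.6 CPM in BCAA-free sham libraries. Control libraries had 63.3, 74.1 and 71.3 CPM after TAC and 73.9, 76.6 and 69.3 CPM after sham surgery. Again all groups overlapped. The averaged diet difference was -0.07 ± 0.06 (SE, interval -0.19 to 0.05, adjusted p = 0.452), and the TAC differences were -0.09 ± 0.08 on the BCAA-free diet and -0.08 ± 0.08 on the control diet (adjusted p = 0.563 and 0.599).

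The comparisons of TAC with sham surgery ask how pressure load moves the same genes. On the BCAA-free diet limma called 1 of 10 members, against 4.32% of all 15936 genes, and on the control diet 1 of 10, against 5.34% of 15873 genes. The called member was Eif4ebp1 in both. At an unadjusted p under 0.05 there were 2 members on each diet, with Sesn1 added on the BCAA-free diet and Ddit4l on the control diet. The median differences over the members were -0.05 and -0.03, and over all genes they were 0.00 on either diet.

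Eif4ebp1 (ENSMUSG00000031490, chr8:27260329-27276674, plus strand) encodes 4E-BP1, which holds the cap-binding protein eIF4E until mTORC1 phosphorylates it. Its levels were 101, 106 and 107 CPM in BCAA-free TAC and 69.7, 66.8 and 71.8 CPM in BCAA-free sham libraries. On the control diet they were 109.5, 93.0 and 90.2 CPM after TAC and 74.9, 70.9 and 68.2 CPM after sham surgery. On both diets every TAC library lay above every sham library, with a wide gap between them. The TAC difference was 0.58 ± 0.06 on the BCAA-free diet (SE, interval 0.44 to 0.72, adjusted p = 0.00195) and 0.45 ± 0.08 on the control diet (interval 0.26 to 0.63, adjusted p = 0.0188). As percentages these are rises of 49.7% (36.0% to 64.8%) and 36.2% (19.7% to 54.9%). On the BCAA-free diet the call held under all 15 alternatives, and on the control diet under 15 of 16, being lost without control sham replicate 3, where the difference was 0.42 (adjusted p = 0.0646).

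Between the diets Eif4ebp1 did not pass in either setting, with a difference of -0.03 ± 0.06 in sham hearts (SE, interval -0.16 to 0.10, adjusted p = 0.843) and 0.11 ± 0.08 in TAC hearts (interval -0.08 to 0.30, adjusted p = 0.508). The difference between its TAC responses on the 2 diets was 0.14 ± 0.10 (interval -0.08 to 0.36, adjusted p = 0.721). For that difference of responses limma called 0 of 10 members, against 0.0451% of 15524 genes, with 0 members whose p before adjustment was under 0.05, and 0 called by edgeR or by DESeq2. For 7 of the 10 members the interval of that difference lay within 1.5-fold, the exceptions being Ddit4, Sesn2 and Ddit4l.

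Markers of other cell types moved with TAC as well, and their part in the Eif4ebp1 result was not tested. The 6 fibroblast markers summed to 760 to 1435 CPM in BCAA-free TAC and 508 to 555 CPM in BCAA-free sham libraries, and 3 of 6 rose. They summed to 781 to 1451 CPM in control TAC and 583 to 629 CPM in control sham libraries, where 2 of 6 rose and 1 fell. The 6 macrophage markers summed to 237 to 275 CPM in BCAA-free TAC and 144 to 156 CPM in BCAA-free sham libraries, with 5 of 6 that rose. In control TAC they summed to 180.3 to 296 CPM and in control sham to 176 to 193 CPM, with 0 of 6 past the threshold by limma. No marker of either list was at 0 reads. Of 6 smooth muscle and pericyte markers 2 rose on the BCAA-free diet and 1 on the control diet, and of 6 endothelial markers 2 and 1 fell. On the BCAA-free diet 1 of 6 T cell markers fell and 1 of 3 tested skeletal muscle markers rose. On the control diet 1 of 3 tested neutrophil and 1 of 5 erythroid markers fell. Of 8 cardiomyocyte markers 0 passed on either diet by limma. Endothelial sums ran from 575 to 628 CPM in BCAA-free TAC and 645 to 765 CPM in BCAA-free sham libraries, and from 698 to 775 CPM in control TAC and 723 to 968 CPM in control sham libraries. Control TAC replicate 1 was the highest of its group in both sums and in Eif4ebp1, and without it the Eif4ebp1 difference was 0.36 (adjusted p = 0.0345). BCAA-free TAC replicate 1 was the highest of its group in both sums but the lowest in Eif4ebp1, and without it the difference was 0.60. Without control TAC replicate 3, the library with liver markers, it was 0.50.

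The 3 genes whose level followed Eif4ebp1 most closely over the 12 libraries, among 9871 genes compared, were Tnnc1, Fads3 and Tmem234. Their Pearson correlations of log2 CPM were 0.963, 0.951 and 0.947, given as a description of libraries that share groups. Tnnc1, which encodes the troponin C of heart and slow muscle, averaged 3133 ± 86.4 CPM in BCAA-free TAC and 2211 ± 115 CPM in BCAA-free sham libraries, and 2864 ± 111 CPM in control TAC and 2256 ± 38.6 CPM in control sham libraries (SD, n = 3 each). Fads3, a member of the fatty acid desaturase family, averaged 60.1 ± 1.4 CPM in BCAA-free TAC and 49.4 ± 2.3 CPM in BCAA-free sham libraries, and 61.8 ± 5.8 CPM in control TAC and 49.8 ± 0.67 CPM in control sham libraries. Tmem234, a membrane protein, averaged 70.4 ± 0.85 CPM in BCAA-free TAC and 60.3 ± 1.7 CPM in BCAA-free sham libraries, and 65.5 ± 2.1 CPM in control TAC and 59.2 ± 0.43 CPM in control sham libraries.

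Eif4ebp2, which encodes the second 4E-BP, was measured at 18.9, 20.1 and 20.0 CPM in BCAA-free TAC and 27.2, 30.6 and 25.0 CPM in BCAA-free sham libraries. Control libraries had 19.1, 24.4 and 21.9 CPM after TAC and 23.2, 24.2 and 23.0 CPM after sham surgery. The BCAA-free groups stood apart with TAC the lower, and the control groups overlapped. Eif4ebp2 fell with TAC on the BCAA-free diet by 0.49 ± 0.09 on the log2 scale (SE, adjusted p = 0.0154). The call was lost without BCAA-free sham replicate 1 or 2 (adjusted p = 0.0766 and 0.0910). On the control diet the difference was -0.11 ± 0.10 (adjusted p = 0.540), and the difference between the responses, -0.38 ± 0.13, did not pass (adjusted p = 0.325). Eif4ebp3, the third 4E-BP, stood at 0.166 to 1.28 CPM over all libraries and passed in no comparison by limma. Per kilobase of exon the 12-library means were 39.1 CPM for Eif4ebp1, 4.00 for Eif4ebp2 and 0.807 for Eif4ebp3.

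**Figure D3:**
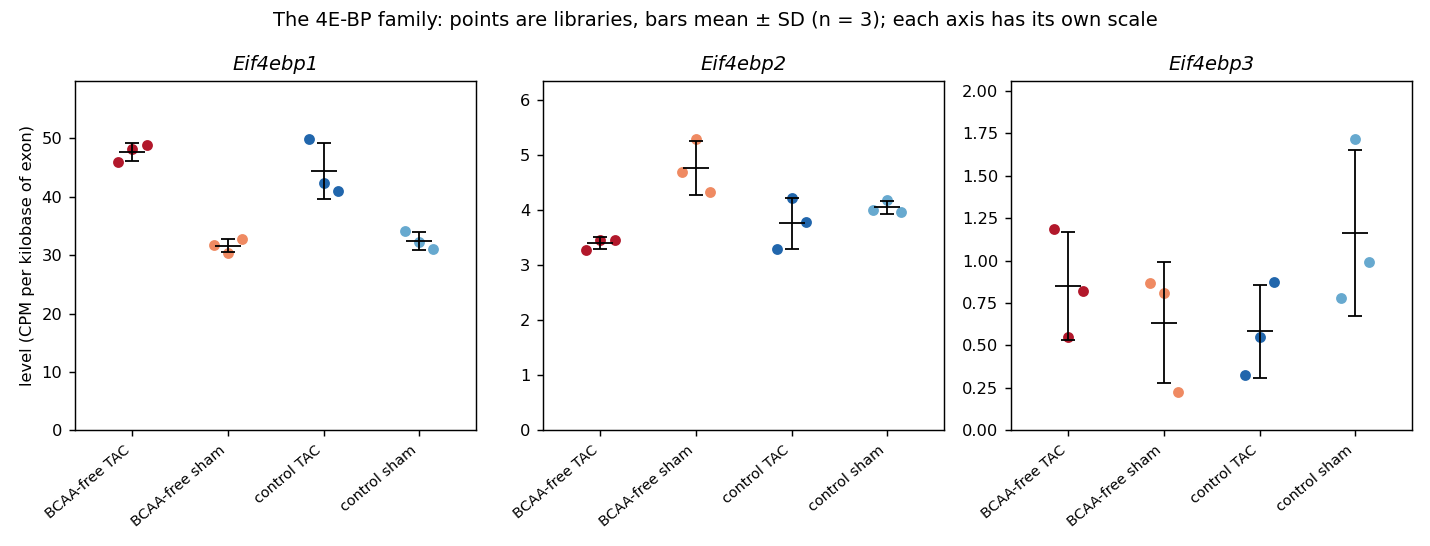
Levels of the 3 genes of the 4E-BP family in every library, in CPM per kilobase of exon (each y axis with its own scale, from 0); points are libraries and bars mean ± SD of 3. TAC stands above sham for Eif4ebp1 on both diets, and Eif4ebp2 stands lower in BCAA-free TAC than in BCAA-free sham.

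To place the 10 genes in their pathway, 75 further genes in 4 lists were read, of which 72 were tested. The lists were the amino acid branch to the Rag GTPases, the growth factor and energy branch to Rheb, other subunits of the mTOR complexes, and targets and effectors of mTORC1. With the diet averaged over surgery 3 rose and 6 fell, or 12.5% of those tested, against 11.8% of all genes, and their median difference was 0.02 against 0.01. In sham hearts 1 of 72 passed and in TAC hearts 1 of 72, or 1.39% each, against 2.81% and 3.38% of all genes. The averaged count of 9 ran from 6 without BCAA-free sham replicate 1 to 16 without BCAA-free TAC replicate 1. With TAC 2 fell on the BCAA-free diet, or 2.78% against 4.32% of all genes, and 0 to 3 were called when 1 library was left out, with 0 without BCAA-free sham replicate 1 or 2. With TAC on the control diet 2 rose and 2 fell, or 5.56% against 5.34%. That count was 0 without control sham replicate 1, 1 without any other library, and 2 by edgeR or with a replicate block. Of the 72 genes 0 passed between the TAC responses by limma, edgeR or DESeq2, with 5 at an unadjusted p under 0.05.

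Some cell type markers moved with the diet too, and their part in the pathway calls was not tested. In sham hearts 2 of 6 fibroblast and 1 of 6 macrophage markers fell. Of 8 cardiomyocyte markers 1 fell, and of 5 erythroid markers 1 fell. Of 6 smooth muscle and pericyte markers 1 rose, and of 6 T cell markers 1 rose. Fibroblast sums were 508 to 555 CPM in BCAA-free sham and 583 to 629 CPM in control sham libraries, and macrophage sums were 144 to 156 CPM in BCAA-free sham and 176 to 193 CPM in control sham libraries. In these hearts 2 of 4 tested adipocyte markers rose, with sums of 12.6 to 24.9 CPM in BCAA-free sham and 7.58 to 8.45 CPM in control sham libraries, and none of the 4 was at 0 reads. In TAC hearts 1 fibroblast marker and 1 of 3 tested skeletal muscle markers rose, and 1 of 6 endothelial markers fell. There 0 macrophage and 0 adipocyte markers passed by limma. Of 8 cardiomyocyte markers 0 passed there, with a median difference of 0.32. Their sums did not overlap, by a small margin, at 89652 to 99304 CPM in BCAA-free TAC and 84067 to 89556 CPM in control TAC libraries.

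In the amino acid branch, 2 of 27 genes fell on the BCAA-free diet, averaged over surgery. This share of 7.41% was below the 11.8% of all genes. The genes were the partners of folliculin, which acts on the Rag GTPases. Fnip1 averaged 41.2 ± 3.2 CPM in BCAA-free TAC and 51.3 ± 1.8 CPM in control TAC libraries, and 43.8 ± 2.9 CPM in BCAA-free sham and 54.4 ± 4.6 CPM in control sham libraries (SD, n = 3 each). Its averaged difference was -0.31 ± 0.06 (SE, adjusted p = 0.00398), and it passed under all 22 alternatives. Fnip2 fell by 0.40 ± 0.08 on the log2 scale (adjusted p = 0.00591), a call lost without control TAC replicates 2 and 3 together (adjusted p = 0.0648). The sensors and GATOR subunits of the list, and the Ragulator genes, were not among the 2 called. In single surgeries 0 of 27 passed by limma, with the leading genes at -0.30 (Fnip1 in sham hearts, adjusted p = 0.0606) and -0.46 (Fnip2 in TAC hearts, adjusted p = 0.0536). Before adjustment 4 and 6 genes had a p under 0.05, and DESeq2 called 1 of 27 in sham hearts and 2 of 27 in TAC hearts.

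With TAC 1 of 27 genes of that branch fell on either diet, or 3.70%. Over all genes the shares were 4.32% on the BCAA-free and 5.34% on the control diet. The gene was Rragd, which encodes the Rag GTPase RagD. It averaged 87.5 ± 3.6 CPM in BCAA-free TAC and 108 ± 8.5 CPM in BCAA-free sham libraries, and 75.5 ± 9.0 CPM in control TAC and 98.3 ± 6.5 CPM in control sham libraries (SD, n = 3 each). The differences were -0.31 ± 0.07 and -0.39 ± 0.09 (SE, adjusted p = 0.0421 and 0.0457). Both lay close to the threshold. On the BCAA-free diet the call was lost without any 1 of the sham libraries or without TAC replicate 2, as well as under 2 other fits, with adjusted p from 0.0635 to 0.190. On the control diet it was lost without any 1 of the 6 libraries and by edgeR, with adjusted p from 0.0548 to 0.120. Between the TAC responses Lamtor4, a Ragulator gene, led the list at 0.34 ± 0.09 and did not pass (adjusted p = 0.236).

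In the growth factor and energy branch, 2 rose and 2 fell of 20 with the averaged diet, or 20% against 11.8% of all genes. Grb10, an adaptor that restrains insulin signalling and is itself an mTORC1 substrate, fell by 0.28 ± 0.06 on the log2 scale (SE, adjusted p = 0.0109), a call lost without control TAC replicates 2 and 3 together (adjusted p = 0.0888). The genes that rose were Stk11, the kinase LKB1, and Akt2. In sham hearts alone 1 of 20 passed, or 5% against 2.81% of all genes. This was Stk11 at 0.23 ± 0.05 (adjusted p = 0.0478). Its call was lost under 7 of 15 alternatives (adjusted p = 0.0575 to 0.175). Among them were the edgeR test and the omission of any 1 of the BCAA-free sham libraries or of control sham replicate 1 or 3.

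With TAC on the control diet 2 rose and 1 fell of the same 20, or 15% against 5.34% of all genes. Grb10 averaged 81.5 ± 4.2 CPM in control TAC and 61.2 ± 3.1 CPM in control sham libraries (SD, n = 3 each) and rose by 0.41 ± 0.07 (SE, adjusted p = 0.0135), a call lost without control sham replicate 1 or without control TAC replicates 2 and 3 together (adjusted p = 0.0518 and 0.0894). Akt2, a kinase of the insulin pathway, fell by 0.29 ± 0.06 on the log2 scale (adjusted p = 0.0311), lost without any 1 of the 6 libraries and with a replicate block (adjusted p = 0.0501 to 0.104). Akt1 was the other gene that rose (0.27 ± 0.07, adjusted p = 0.0498), and its call too was lost without any 1 of the 6 libraries. The branch then held 0 calls without control sham replicate 1 and 1, Grb10, without any other library, with 2 by edgeR and 1 with a replicate block. With TAC on the BCAA-free diet 0 of 20 passed by limma, with 3 at an unadjusted p under 0.05 and Akt2 leading at -0.20 ± 0.07 (adjusted p = 0.131). Between the TAC responses 0 of 20 passed by limma, with 1 at an unadjusted p under 0.05.

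Of the 7 other subunits and assembly factors of the mTOR complexes, 1 fell with the averaged diet, or 14.3% against 11.8% of all genes. This was Rictor, the scaffold of mTORC2. Rictor averaged 12.3 ± 1.7 CPM in BCAA-free TAC and 15.3 ± 0.26 CPM in control TAC libraries, and 14.7 ± 1.8 CPM in BCAA-free sham and 18.5 ± 0.47 CPM in control sham libraries (SD, n = 3 each). Its averaged difference was -0.32 ± 0.08 (SE, adjusted p = 0.0159), a call lost without control TAC replicates 2 and 3 together (adjusted p = 0.0939). In each pairwise comparison 0 of 7 passed by limma, although before adjustment p was under 0.05 for 1 in sham hearts, 3 in TAC hearts, and 0 and 2 with TAC on the BCAA-free and the control diet. Rictor led in sham hearts (-0.32, adjusted p = 0.104) and with TAC on either diet (-0.27 on both, adjusted p = 0.253 and 0.0761), and Prr5l led in TAC hearts (-0.77, adjusted p = 0.134). Rptor, the mTORC1 scaffold, had an averaged difference of -0.04.

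Of 18 targets and effectors of mTORC1, 1 rose and 1 fell with the averaged diet, or 11.1% against 11.8% of all genes. Atg13, a subunit of the autophagy kinase complex, rose by 0.21 ± 0.05 (SE, adjusted p = 0.0180), lost without BCAA-free sham replicate 1 or without control TAC replicates 2 and 3 together (adjusted p = 0.0523 and 0.0534). Eif4e, the cap-binding protein that 4E-BP1 holds, averaged 111 ± 5.1 CPM in BCAA-free TAC and 120.1 ± 5.8 CPM in control TAC libraries, and 103 ± 4.3 CPM in BCAA-free sham and 119.9 ± 4.3 CPM in control sham libraries (SD, n = 3 each). It fell by 0.16 ± 0.04 on the log2 scale (SE, adjusted p = 0.0268). That call was lost under 7 of 22 alternatives, all of them omissions of libraries: BCAA-free TAC replicate 3, BCAA-free sham replicate 1 or 2, control TAC replicate 2, 3 or both, and control sham replicate 1 (adjusted p = 0.0514 to 0.187). With TAC 1 of 18 passed on the BCAA-free diet, or 5.56% against 4.32% of all genes, the Eif4ebp2 already described. On the control diet 0 of 18 passed by limma and 1 by DESeq2. Eif4a1, the helicase partner of eIF4E, led there at 0.28 (limma adjusted p = 0.0579), the 1 gene with a p under 0.05 before adjustment.

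**Figure D4:**
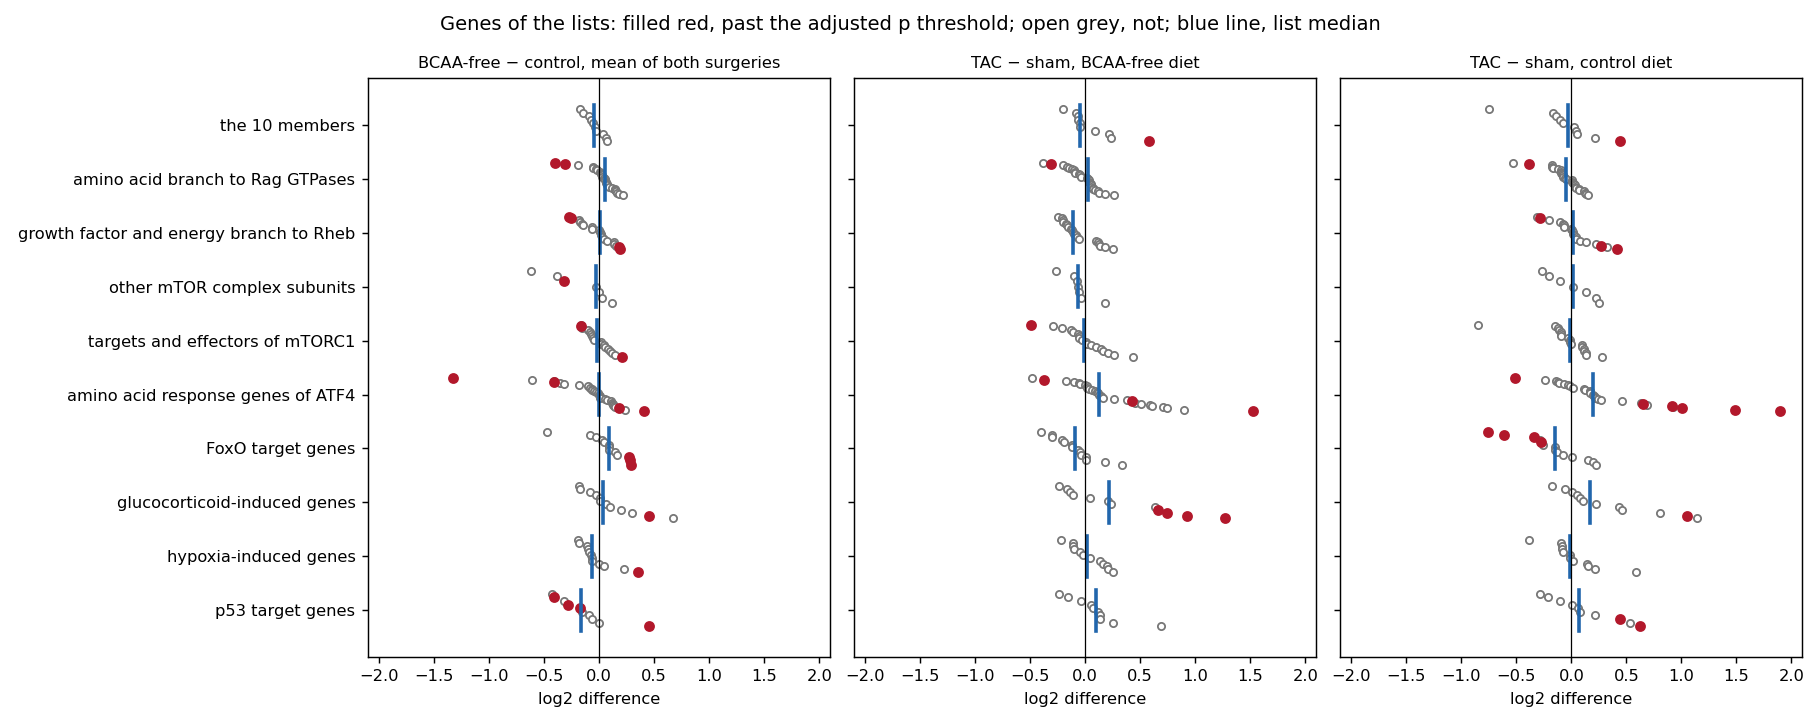
Log2 differences (x axis) of every tested gene of the members and of 9 further lists (rows), in the diet comparison averaged over surgery and in TAC against sham on each diet; red filled points passed the adjusted p threshold, open points did not, and the blue line is the list median. Among the members, Eif4ebp1 is the filled point in both TAC panels, and the diet panel has none.

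Genes that ATF4 induces when amino acids run short gave a second reading of the diet. By limma 0 of 29 passed in sham hearts, with 0 by edgeR and DESeq2 and 5 whose p before adjustment was under 0.05. The leading gene, Cebpb, had a difference of 1.00 ± 0.29 (SE, adjusted p = 0.0891). It passed there under 2 of 15 alternatives, the replicate block and the omission of control sham replicate 1 (limma adjusted p = 0.0122 and 0.00581). In TAC hearts 1 rose and 2 fell, or 10.3% against 3.38% of all genes. Cebpb was 1 of those that fell there (-0.98, adjusted p = 0.00767), opposite in sign to its uncalled difference in sham hearts, and Mthfd2 was the other (-1.97, adjusted p = 0.00307). Both calls were lost without control TAC replicates 2 and 3 together (adjusted p = 0.150 and 0.0803) and held under the other 15 alternatives. Averaged over surgery 2 rose and 2 fell, or 13.8% against 11.8% of all genes, with a list median of 0.00. Mthfd2, a mitochondrial enzyme of one-carbon metabolism, averaged 3.45 ± 0.78 CPM in BCAA-free TAC and 13.9 ± 3.2 CPM in control TAC libraries, and 2.20 ± 0.38 CPM in BCAA-free sham and 4.01 ± 2.4 CPM in control sham libraries (SD, n = 3 each). It fell by 1.33 ± 0.22 on the log2 scale with the averaged diet (SE, adjusted p = 0.00277), under all 22 alternatives. Slc7a1, a transporter of cationic amino acids, averaged 35.3 ± 1.0 CPM in BCAA-free TAC and 25.3 ± 0.30 CPM in control TAC libraries, and 45.7 ± 5.6 CPM in BCAA-free sham and 36.6 ± 7.0 CPM in control sham libraries. It rose by 0.41 ± 0.08 (adjusted p = 0.00552), also under all 22 alternatives. The list thus held genes that moved in opposite directions. The other 2 called were Slc3a2, which rose (0.18, adjusted p = 0.0492), and Slc7a5, which fell (-0.41, adjusted p = 0.0190), the paired subunits of the leucine transporter LAT1. The count of 4 was 3 by edgeR and in the fit of all 12 libraries, 6 by DESeq2, and 2 to 5 without 1 library. It was 2 without control sham replicate 2, where neither Slc3a2 nor Slc7a5 kept its call.

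With TAC, 2 of the 29 ATF4 genes rose and 1 fell on the BCAA-free diet, or 10.3% against 4.32% of all genes, and 5 rose and 1 fell on the control diet, or 20.7% against 5.34%. Nupr1, a stress-induced transcription regulator, rose on the BCAA-free diet by 1.52 ± 0.26 (SE, adjusted p = 0.0120), a call lost without BCAA-free sham replicate 1 or 2 (adjusted p = 0.0729 and 0.0797). Ddit3, the stress factor CHOP, rose there by 0.43 ± 0.08 (adjusted p = 0.0219), lost without any 1 of the sham libraries or TAC replicate 2 (adjusted p = 0.0514 to 0.120). Without BCAA-free sham replicate 1 or 2 the list held 0 calls, and without BCAA-free TAC replicate 3 it held 7. On the control diet Mthfd2 rose by 1.89 ± 0.34 (adjusted p = 0.0176), lost without control TAC replicate 1 or control sham replicate 3 (adjusted p = 0.0581 and 0.0618). Cebpb, a transcription factor of the stress response, rose by 1.49 ± 0.30 (adjusted p = 0.0258), lost without any 1 of the control TAC libraries, without replicates 2 and 3 of them together, or without control sham replicate 2 (adjusted p = 0.0558 to 0.0986). Without control TAC replicate 1 the list held 0 calls, and without any other 1 library 2 or 3. Over all genes the calls fell as well, from 848 to between 300 and 659 when 1 library was left out. Eif4ebp1, itself an ATF4 target in cultured cells, kept its call without control TAC replicate 1. Whether ATF4 has a part in its rise was not tested. Between the TAC responses 0 of 29 passed by limma and edgeR and 1 by DESeq2, with Cebpb leading at -1.98 ± 0.39 (limma adjusted p = 0.126). Cebpb passed by DESeq2 (adjusted p = 0.0313) and by limma without control sham replicate 1 (adjusted p = 0.00513).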

How the data were processed

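PolyA RNA of whole hearts was measured in 12 libraries, with groups taken from the labels. The submitters' processing notes name, with no order or role, the tools Trimmomatic (0.36), STAR (2.5.2b), Subread (1.5.2) and DESeq2, and the build GRCm38 (mm10). Library kit and counting strand: not given in the sources used here. The authors deposited 4 gene tables, each with the 6 libraries of 1 pair of groups. Library values in the deposited tables are a signal, the gene's reads over the library's size factor, set separately in each table. Per the file headers, the same tables give the authors' log2 fold change for the pair. A raw and an adjusted p-value of the authors stand beside it, of which that of Ddit4l is cited.

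Library values moved in steps of 1 read, from which reads were recovered: 100% of values were whole within 0.001 reads, and 0 genes had different reads where tables share a library. CPM came from these reads with TMM factors. The design provided for edgeR had the tables held raw counts; since they held normalised values, the main test was limma 3.58.1 (R 4.3.3, with an intensity trend) on log2(value + 4). Genes needed a mean of 10 or more. This scale understates changes of low genes. Each pair was tested within its table. The averaged diet difference and the difference of TAC responses joined 2 tables, each difference being taken inside 1 table. P-values were adjusted with the Benjamini-Hochberg method over every gene in the fit, and 0.05 was the threshold. The limma and edgeR fits were run on simulated reads with the same spread for all genes and changes placed only in genes above a minimum level. That run does not speak for genes with a wide spread or few reads.

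The alternatives were pseudocounts of 1 and 16, no filter or a mean of 50, quantile normalization, edgeR 4.0.16 and DESeq2 1.42.0 on recovered reads, 1 fit of all 12 libraries, a replicate block, and omission of each library in turn or of control TAC replicates 2 and 3 together. The 10 members, 9 further gene lists and 11 marker lists, and the tests, were chosen with earlier results of these data known. The genes named besides the members were, for each list and comparison, at most 2 called genes in order of p, or the leading gene where none was called, plus the 3 genes most like a called member (mean of at least 5 CPM, log2(CPM + 1)). Further called genes and the 4E-BP paralogs were named after their values were seen. No list was tested as a set. The result of 1 gene of the lists is not reported here, although the list counts include it. GENCODE M21 held 16475 of the 16514 gene identifiers and gave coordinates and exon lengths.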

Additional observations from a re-analysis of the deposited data

How the results depend on the processing

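Of 1060 values of the members under the alternatives, 992 kept their direction and their side of the threshold, 66 changed sign while past the threshold in neither setting, and 0 were reversed. The 2 changes of call were Sesn1, past the threshold with TAC on the BCAA-free diet without BCAA-free TAC replicate 1, and Eif4ebp1, lost with TAC on the control diet without control sham replicate 3. Leaving out 1 library at a time gave 1 to 2 called members with TAC on the BCAA-free diet, 0 to 1 with TAC on the control diet, and 0 throughout in the other 4 comparisons. With a replicate block the members called were 1 and 1 with TAC on the BCAA-free and the control diet and 0 in the others, the same numbers as without it. Deviations of same-numbered libraries correlated at -0.09 to 0.22, and not every library correlated best with its own number.

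Counts over all genes moved more. The block gave 713 against 438 genes without it for diet in sham hearts, 1275 against 548 for diet in TAC hearts and 3 against 7 for the difference of TAC responses. DESeq2 called 825 against 438 by limma for diet in sham hearts, 1182 against 548 for diet in TAC hearts, 1154 against 688 for TAC on the BCAA-free diet, 1548 against 848 for TAC on the control diet and 108 against 7 for the difference of responses; the cause was not tested. The fit of all 12 libraries called 151, 1188 and 4 genes for diet in sham hearts, diet in TAC hearts and the difference of responses. That last count was also 4 with a pseudocount of 1, a mean of 50 or quantile normalization. Leaving out 1 library gave 68 to 1020 genes for diet in sham hearts, 138 to 1044 for diet in TAC hearts, 1062 to 2484 for diet averaged, 106 to 1199 for TAC on the BCAA-free diet, 300 to 659 for TAC on the control diet and 2 to 15 for the difference of responses. Without control TAC replicates 2 and 3 together, where the lone library is assumed to vary like the other groups, the counts were 0 for diet in TAC hearts, 850 for diet averaged and 1 for the difference of responses. In the 4 pathway lists that omission gave 4 genes in place of 9 for diet averaged, and 0 in place of 1 in TAC hearts. DESeq2 called 3, 4, 14 and 4 genes of these lists for diet in sham hearts, in TAC hearts, averaged, and for TAC on the BCAA-free diet, against 1, 1, 9 and 2 by limma. Few reads limit the statements on Ddit4l and Sesn2 the most.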

Other observations

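Other regulators of the members were read through 4 lists of their known target genes. Of 14 FoxO target genes, 3 rose with the diet averaged over surgery, or 21.4%, against 11.8% of all genes, with a list median of 0.09. Map1lc3b, which encodes the autophagosome protein LC3B, averaged 248 ± 18 CPM in BCAA-free TAC and 186 ± 9.9 CPM in control TAC libraries, and 244 ± 6.9 CPM in BCAA-free sham and 225 ± 8.8 CPM in control sham libraries (SD, n = 3 each). Map1lc3b rose by 0.27 ± 0.05 and Cdkn1b, a cell cycle inhibitor, by 0.28 ± 0.06 (SE, limma adjusted p = 0.00294 and 0.00671), both under all 22 alternatives. Pdk4, a kinase that restrains pyruvate oxidation, went the other way (-0.70 ± 0.13 in sham hearts, limma adjusted p = 0.0178). It was the 1 gene of the list called there, or 7.14% against 2.81% of all genes. That call was lost without BCAA-free sham replicate 2 or 3 and in the fit of all 12 libraries (adjusted p = 0.0505 to 0.109), and the averaged difference was -0.47 ± 0.15 (adjusted p = 0.0518). With TAC on the control diet 4 of the 14 fell, or 28.6% against 5.34% of all genes, and 2 to 3 were called when 1 library was left out, among them Txnip, an inhibitor of thioredoxin (-0.61 ± 0.07, adjusted p = 0.00468), and Pdk4 (-0.76 ± 0.11, adjusted p = 0.00835), both under all 16 alternatives. With TAC on the BCAA-free diet 0 of 14 passed by limma and edgeR and 1 by DESeq2, with 5 at an unadjusted p under 0.05. Between the TAC responses 0 of 14 passed by limma, edgeR or DESeq2, with 2 at an unadjusted p under 0.05, so the responses are not shown to differ.

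Of 12 glucocorticoid-induced genes, 4 rose with TAC on the BCAA-free diet, or 33.3% against 4.32% of all genes. Fkbp5 was the 1 that rose on the control diet, or 8.33% against 5.34%, a call lost under 8 of 16 alternatives, edgeR and DESeq2 among them (adjusted p = 0.0666 to 0.149). Between the TAC responses 0 of 12 passed by limma, edgeR or DESeq2, with 1 at an unadjusted p under 0.05, so these responses are not shown to differ. The count of 4 on the BCAA-free diet became 1 in the fit of all 12 libraries. In that fit the count on the control diet went from 1 to 3. The counts on the BCAA-free and the control diet were 4 and 2 with a replicate block, 4 and 0 by edgeR, and 4 and 1 by DESeq2. When 1 library was left out they were 1 to 7 and 0 to 2. On the BCAA-free diet 1 was called without BCAA-free sham replicate 3 and 7 without BCAA-free TAC replicate 1. Mt2, a metallothionein, rose by 1.27 ± 0.18 on the BCAA-free diet (SE, adjusted p = 0.00597), under all 15 alternatives, and averaged 63.1 ± 16 CPM in BCAA-free TAC and 25.9 ± 6.6 CPM in BCAA-free sham libraries (SD, n = 3 each). Of 12 hypoxia-induced genes 1 rose with the averaged diet, or 8.33% against 11.8% of all genes, the glucose transporter Slc2a1 (0.35 ± 0.08, adjusted p = 0.0133), a call lost without control TAC replicates 2 and 3 together (adjusted p = 0.128). With TAC 0 of these 12 passed on either diet by limma, edgeR or DESeq2, with 2 at an unadjusted p under 0.05 on the BCAA-free diet and 0 on the control diet. Of 10 p53 target genes 1 rose and 3 fell with the averaged diet, or 40% against 11.8% of all genes. The count was 3 to 5 when 1 library was left out, and 2 without control TAC replicates 2 and 3 together. Cdkn1a, the cell cycle inhibitor p21, rose by 0.45 ± 0.08 (adjusted p = 0.00398), lost without control TAC replicates 2 and 3 together (adjusted p = 0.0502). Bax, a promoter of cell death, fell by 0.29 ± 0.06 on the log2 scale (adjusted p = 0.0104), under all 22 alternatives. Cdkn1a is shared with the glucocorticoid list, where it was the 1 of 12 genes called with the averaged diet, or 8.33% against 11.8% of all genes. It was also the 1 of 12 called with the diet in sham hearts, or 8.33% against 2.81%.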
